A study of Rattus norvegicus with 5 samples.

Results

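The genes described here are 9 transcripts of myelin and of the oligodendrocytes that make it: Mbp, Mog, Mag, Mobp, Cnp, Cldn11, Ermn, Mal and Tf. They were taken from a fixed list of names, found by gene name in the authors' deposited comparison of 12054 genes, and followed by Ensembl identifier into count files of 32285 genes. All 9 were found, and all 9 were among the 13811 genes that passed the filter on low counts. The selection rule itself uses no threshold on a measured value, but a gene absent from the authors' comparison could not have been found. The names were also proposed with earlier results of these data known.

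The libraries came from rat striatum (Rattus norvegicus), where neurons had been lit by a fluorescent tracer infused at the place their axons end and then cut out under the microscope by laser capture. Striatomesencephalic neurons, whose axons run to the midbrain, gave 2 libraries, named SN1 and SN2 in the labels, and striatopallidal neurons, whose axons run to the pallidum, gave 3 libraries, SP1, SP2 and SP3. Both groups share the tracer surgery, the capture, and amplification of polyadenylated RNA with a single-cell kit. The sources used here give no strain, age or sex, and no number of animals or cells per library, so p-values measure only the spread between these 5 libraries, which may in part be technical.

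Myelin is the stack of membrane that oligodendrocytes wrap around axons in the brain and spinal cord. Its compact layers are held together by small membrane-binding proteins, its uncompacted rims and inner loop carry enzymes and adhesion proteins, and the transcription factors SOX10 and MYRF drive its genes. Striatal projection neurons do not form myelin, but bundles of myelinated axons run through the striatum and oligodendrocytes often sit against neuronal cell bodies. The libraries are bulk samples, so fewer cells of a type and less RNA per cell cannot be told apart in any value below.

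Promoter sequence was at hand for 7 of the 9 genes, from RefSeq on the rat build GRCr8. The count files were made on another build, Rnor_6.0, so these positions do not apply to them. Each stretch runs from 250 bases before to 50 bases after an annotated start. The Mbp gene has 2 such starts, which gives 8 promoters, and the gene counts do not separate transcripts of the Mbp gene by start. Cnp and Mag are printed because they stand near the top and at the bottom of the read order described below, and Mobp because of the repeats in its promoter. In Cnp (chr10:86011254-86011553, + strand) and Mag (chr1:95290995-95291294, - strand) the capitals mark CTGGCAC, a form of the MYRF motif. In Mobp (chr8:128746982-128747281, + strand) they mark CTTTGT, which is ACAAAG, the core of the SOX motif, on the other strand.
Cnp: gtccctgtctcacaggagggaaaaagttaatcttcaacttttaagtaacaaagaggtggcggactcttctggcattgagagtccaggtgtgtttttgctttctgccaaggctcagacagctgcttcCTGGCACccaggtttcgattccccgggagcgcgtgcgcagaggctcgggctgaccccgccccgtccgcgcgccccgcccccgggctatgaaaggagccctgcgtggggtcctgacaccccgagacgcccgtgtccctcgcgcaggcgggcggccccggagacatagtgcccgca
Mag: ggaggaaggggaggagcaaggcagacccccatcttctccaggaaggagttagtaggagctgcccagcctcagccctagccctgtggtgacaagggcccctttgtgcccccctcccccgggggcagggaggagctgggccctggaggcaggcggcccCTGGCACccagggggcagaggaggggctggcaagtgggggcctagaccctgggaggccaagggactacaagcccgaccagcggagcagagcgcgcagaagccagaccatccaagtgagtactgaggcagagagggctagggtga
Mobp: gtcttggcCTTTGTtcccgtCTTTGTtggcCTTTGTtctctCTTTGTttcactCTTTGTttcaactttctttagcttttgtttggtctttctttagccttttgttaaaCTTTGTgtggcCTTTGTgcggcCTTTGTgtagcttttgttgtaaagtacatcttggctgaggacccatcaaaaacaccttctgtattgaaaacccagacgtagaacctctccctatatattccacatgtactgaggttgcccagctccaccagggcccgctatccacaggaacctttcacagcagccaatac

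The MYRF motif was searched as CTGGCAC or CTGGTAC on both strands. It was in the promoters of Mag, Cnp, Mal and Cldn11, or 4 of the 8, and in 6.78% of all 33469 promoters of the same length. Its first base lay at -94 in Mag, -124 in Cnp, -126 in Mal and -120 in Cldn11, counted from the start. The Mal and Cldn11 matches were on the other strand, and that of Cldn11 was CTGGTAC. The search found no match in the windows of Tf, Mobp or either Mbp start. ACAAAG was searched on both strands as well. It was in 4 of the 8 promoters and in 18.8% of all, and the Mobp promoter held 8 copies, a number that 3 of the 33469 promoters reach. These matches are descriptions of letters, and no binding was measured. By the distance between genes described below, the 4 genes with the MYRF motif included the farthest pair, Cldn11 and Mal (1.70). They also included a nearer pair, Mag and Mal (0.557). Any tie between the motif and the levels was not tested.

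Library totals ran from 20845178 to 24805062 counts. SP2 stood apart from the other libraries. It had 11871 genes with at least 10 counts against 12844 to 13969 in the others, and a scaling factor by TMM (trimmed mean of M-values) of 0.774 against 1.02 to 1.14. Results that rest on it are given with and without it. Levels are given as CPM, which divides each count by its library's total, unless TMM scaling is named. At these depths 3 counts, taken as the floor of detection, equal 0.121 to 0.144 CPM, and all 9 genes stood above it in every library. The lowest count of any of them was 217, for Mag in SN2. Reads carry no molecular identifiers, so floors and intervals cover counting error only.

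Myelin reads were present in every library of captured neurons. The 9 genes together took 0.442% of all counts in SN1, 0.533% in SN2, 0.50% in SP1, 0.614% in SP2 and 0.355% in SP3. That is 4417 and 5326 CPM in SN1 and SN2, and 5002, 6141 and 3546 CPM in SP1, SP2 and SP3. The highest and the lowest library were both striatopallidal, so the groups overlapped. The mean of the striatomesencephalic libraries was 4872 ± 643 CPM (SD, n = 2). That of the striatopallidal libraries was 4896 ± 1301 CPM (SD, n = 3), and the difference was smaller than either SD. With TMM scaling, which raises SP2, the sums were 4229 and 5232 in SN1 and SN2 and 4399, 7942 and 3334 in SP1, SP2 and SP3. SP2 and SP3 again held the extremes.

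The libraries also carried the transcripts of the neurons they are named for. A list of 15 spiny projection neuron genes, which includes the phosphodiesterase Pde10a, summed to 18085 and 23659 CPM in SN1 and SN2 and to 27388, 23793 and 27024 CPM in SP1, SP2 and SP3. For every 100 reads of that list there were 24.4 and 22.5 reads of the myelin genes in SN1 and SN2, and 18.3, 25.8 and 13.1 in SP1, SP2 and SP3. SP1 and SP3 had the lowest values, and SP2 the highest. The sum of 11 pan-neuronal genes, led by the synaptic vesicle protein Syt1 and the GABA-making enzyme Gad2, was nearly level at 5854 to 6208 CPM. Single genes of that list were not: Slc32a1 ran from 34.6 CPM in SN1 to 857 CPM in SP2. Of the 11 genes 4 separated the groups, 2 in each direction, against 21.1% of all genes tested. Without Slc32a1, SP2 went from the highest to the lowest sum in CPM. With TMM scaling, which raises SP2, the sums were not level. On that scale SP2 was highest with or without Slc32a1.

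The make-up of the myelin reads was dominated by Mbp and Cnp. The shares that follow are shares of the 9 genes' reads, not scaled for transcript length, so they rank reads and not molecules. Mbp took 58.4% in SN1 and 66.9% in SN2, and 67.3%, 61.3% and 64.6% in SP1, SP2 and SP3. The group means were 62.7% ± 6.04 (SD, n = 2) and 64.4% ± 2.97 (SD, n = 3), and the difference was smaller than either SD. Cnp took 30.3% and 22.7% in SN1 and SN2, and 20.6%, 20.4% and 24.2% in SP1, SP2 and SP3. Mbp and Cnp together held 88.7%, 89.6%, 87.9%, 81.7% and 88.7% of the reads in the same order of libraries. SP2 stood below the others, which lay within 87.9% to 89.6%.

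**Figure D1:**
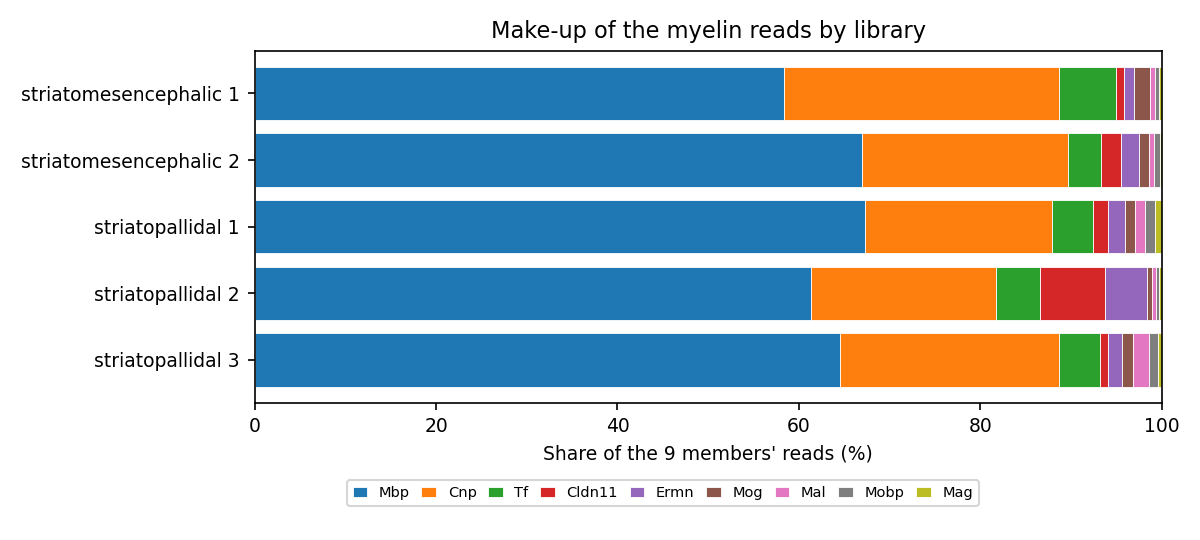
Share of the 9 genes' reads (x axis, %) held by each gene in each library (1 bar per library, 1 colour per gene). Mbp takes 58.4% to 67.3% of every bar, and the Cldn11 and Ermn segments are widest in striatopallidal library 2, at 7.20% and 4.69%.

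Within that pair SN1 differed most. The number of Mbp reads per Cnp read was 1.93 in SN1 and 2.95 in SN2, and 3.26, 3.01 and 2.67 in SP1, SP2 and SP3. The exact (Clopper-Pearson) 95% interval of the Mbp share was 58.1% to 58.7% in SN1 and 66.7% to 67.2% in SN2, so libraries of 1 group differed by far more than counting error. Tf ranked next after Mbp and Cnp in every library but SP2, at 6.19% and 3.65% in SN1 and SN2 and 4.47%, 4.82% and 4.47% in SP1, SP2 and SP3. In SP2 Cldn11 took that place.

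The other 6 genes were minor in reads and exchanged places. Cldn11 took 0.930% and 2.25% in SN1 and SN2, and 1.70%, 7.20% and 0.847% in SP1, SP2 and SP3. Its interval in SP2 was 7.08% to 7.33%, above its interval in every other library. Ermn took 1.14% and 1.98% in SN1 and SN2 and 1.83%, 4.69% and 1.60% in SP1, SP2 and SP3, highest in the same library. Mog ran the other way, with 1.68% and 1.08% in SN1 and SN2 and 1.20%, 0.540% and 1.21% in SP1, SP2 and SP3, lowest in SP2. Mal had its largest share in SP3, at 1.74% against 0.436% to 1.07% elsewhere. Mobp lay between 0.330% in SP2 and 1.08% in SP1. Mag was last in all 5 libraries, between 0.180% (interval 0.157% to 0.206%) in SN2 and 0.742% (interval 0.694% to 0.792%) in SP1.

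**Figure D2:**
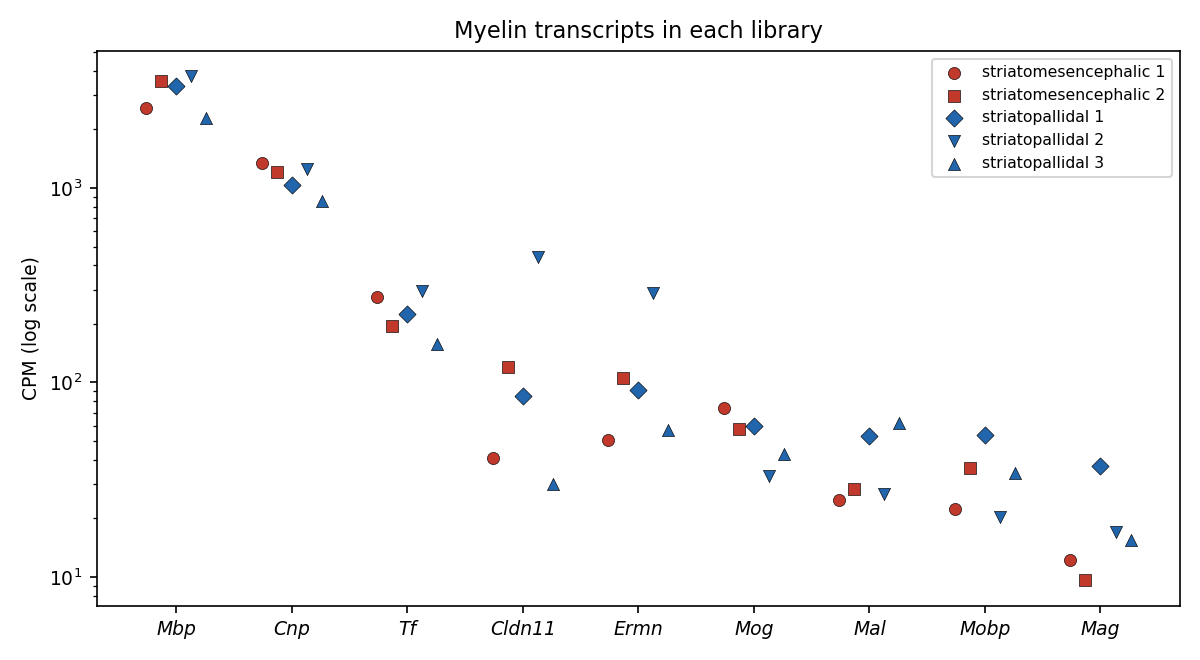
CPM of the 9 genes (x axis) in each of the 5 libraries (y axis, log scale, 1 symbol per library). The symbols of Mbp, Cnp and Tf lie close together, while those of Cldn11 run from 30.0 to 442 CPM.

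Among the proteins of compact myelin, neither Mbp nor Mobp separated the groups. Mbp, the basic protein that seals the cytoplasmic faces of the membrane, stood at 2579 and 3565 CPM in SN1 and SN2 and at 3365, 3767 and 2289 CPM in SP1, SP2 and SP3. The lowest and the highest library were both striatopallidal. Its log2 fold change, striatomesencephalic minus striatopallidal, was -0.16 ± 0.38 (SE), with an adjusted p of 0.963 in edgeR's quasi-likelihood test. Mobp, a small basic protein of the same layers, stood at 22.3 and 36.4 CPM in SN1 and SN2 and at 53.9, 20.2 and 34.4 CPM in SP1, SP2 and SP3. SP1 was highest and SP2 lowest (SN1 with TMM scaling), so the groups overlapped (log2 fold change -0.31 ± 0.64, adjusted p = 0.958 in the same test).

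Of the proteins of uncompacted myelin and the inner loop, Cnp, the myelin cyclic nucleotide phosphodiesterase, was the steadiest. It stood at 1339 and 1209 CPM in SN1 and SN2 and at 1033, 1250 and 857 CPM in SP1, SP2 and SP3. SP2 lay between the striatomesencephalic libraries, and the log2 fold change was 0.15 ± 0.37 (adjusted p = 0.963, edgeR). Mag, the adhesion protein on the myelin face turned to the axon, was the gene with the smallest p. It stood at 12.2 and 9.60 CPM in SN1 and SN2 and at 37.1, 16.9 and 15.4 CPM in SP1, SP2 and SP3. All striatopallidal libraries were above both striatomesencephalic ones, and SP1 was well above the rest. The means were 10.9 ± 1.87 CPM (SD, n = 2) and 23.2 ± 12.1 CPM (SD, n = 3). The log2 fold change of -1.12 ± 0.75 had an unadjusted p of 0.178 and an adjusted p of 0.810 in edgeR's quasi-likelihood test, and did not pass the threshold of 0.05.

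Among the surface and junction proteins, Mog and Cldn11 differed most in SN1 and SP2. In log2 CPM both lay above their own means in SN2 and below them in SP3. Mog, a glycoprotein of the outermost myelin surface and an autoimmune target in demyelinating disease, stood at 74.3 and 57.5 CPM in SN1 and SN2 and at 59.8, 33.1 and 42.9 CPM in SP1, SP2 and SP3. SN1 was highest and SP2 lowest (SP3 with TMM scaling), with SP1 just above SN2 (log2 fold change 0.50 ± 0.51, adjusted p = 0.879, edgeR). Cldn11, the claudin of myelin tight junctions, stood at 41.1 and 120 CPM in SN1 and SN2 and at 84.9, 442 and 30.0 CPM in SP1, SP2 and SP3. SP2 held the highest value and SP3 the lowest, and the 2 striatomesencephalic libraries lay within that range. Its log2 fold change of -1.52 ± 1.24 (adjusted p = 0.849, edgeR) turned to 0.60 ± 0.75 (adjusted p = 0.845) without SP2.

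Ermn, a cytoskeletal protein of late oligodendrocyte maturation, repeated the order of Cldn11 at its upper end. It stood at 50.5 and 106 CPM in SN1 and SN2 and at 91.7, 288 and 56.7 CPM in SP1, SP2 and SP3. SP2 was again highest, followed by SN2 and SP1. The log2 fold change was -1.15 ± 0.91 (adjusted p = 0.840, edgeR) with all libraries and 0.17 ± 0.55 (adjusted p = 0.948) without SP2.

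Mal, a proteolipid of membrane sorting, and Tf, the iron carrier transferrin that oligodendrocytes make, complete the set. Mal stood at 24.8 and 28.4 CPM in SN1 and SN2 and at 53.3, 26.8 and 61.8 CPM in SP1, SP2 and SP3. SP2 lay between the striatomesencephalic libraries, while SP1 and SP3 lay above them (log2 fold change -0.85 ± 0.60, adjusted p = 0.822, edgeR). Tf stood at 274 and 194 CPM in SN1 and SN2 and at 224, 296 and 159 CPM in SP1, SP2 and SP3. Its highest and lowest libraries were both striatopallidal, and the log2 fold change was -0.10 ± 0.50 (adjusted p = 0.988, edgeR).

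None of the 9 genes passed the threshold, which was 0.05 for the p adjusted over all 13811 genes tested. The same test called 0% of all genes. By an unadjusted p below 0.05 the count was also 0 of 9, against 6.07% of all genes. DESeq2, which called 1.64% of all genes, and the exact test of edgeR, which called 0.326%, called none of the 9, and neither did limma voom, which called no gene. In those 3 tools, too, no member had an unadjusted p below 0.05. The smallest was that of Mag in DESeq2, at 0.0974 (adjusted p = 0.579). In CPM the groups did not overlap for 1 of the 9 genes, Mag, against 21.1% of all genes tested, or 9.91% with the striatopallidal libraries higher. With TMM scaling they did not overlap for 3 of the 9, Mag and Mal with striatopallidal and Mog with striatomesencephalic libraries higher, against 21.6% of all genes. For a single gene, exact permutation of 2 and 3 libraries (two-sided) gives no p smaller than 0.1, so it was not used.

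The direction of the fold changes rested on SP2. With all libraries 7 of the 9 values were negative, with a median of -0.31, beside 7261 of 13811 genes and a median of -0.06 over all genes tested. Without SP2, 3 of the 9 were negative, those of Mag (-1.17 ± 0.73), Mobp (-0.49 ± 0.59) and Mal (-1.03 ± 0.52), and the median was 0.22. Mbp, Cldn11, Ermn and Tf changed sign with that library. In the authors' deposited table, whose values are striatopallidal minus striatomesencephalic, the log2 fold change was 0.95 for Mag, 0.74 for Ermn, 0.72 for Cldn11, 0.68 for Mal and -0.60 for Mog. The adjusted p-values of the 9 genes in the authors' deposited table ran from 0.927 to 0.998.

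**Figure D3:**
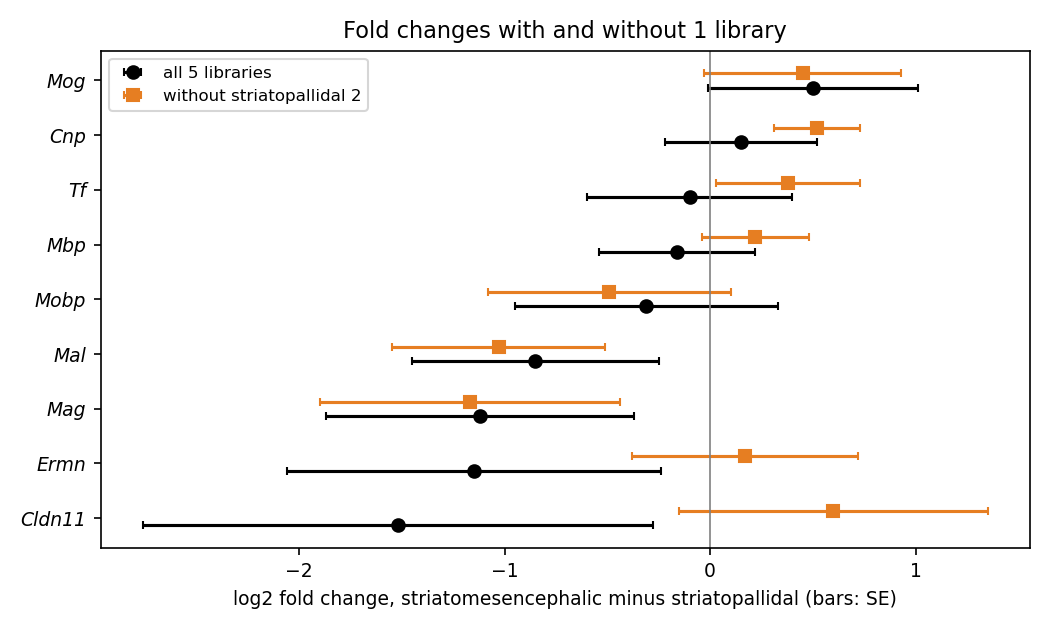
Log2 fold change (x axis, striatomesencephalic minus striatopallidal, bars: SE) of each gene from the fit with all 5 libraries and from the fit without striatopallidal replicate 2. Cldn11 moves from -1.52 to 0.60 and Ermn from -1.15 to 0.17, while Mag stays at -1.12 and -1.17.

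The genes differed widely in how much they varied over the 5 libraries. The coefficient of variation of CPM (SD over mean) was 16.9% for Cnp, 20.7% for Mbp, 24.5% for Tf and 29.8% for Mog. These are low values: of the 8674 tested genes with a mean of at least 10 CPM, 4.54% varied less than Cnp, 8.30% less than Mbp, 12.6% less than Tf and 20.3% less than Mog. Mobp (40.3%), Mal (44.1%) and Mag (59.8%) lay nearer the median of those genes, which was 49.6%. Ermn (82.3%) and Cldn11 (119%) varied most, and 93.5% of those genes varied less than Cldn11. Without SP2 the values were 35.1% for Ermn and 60.0% for Cldn11. The highest library exceeded the lowest 1.56-fold for Cnp, 1.65-fold for Mbp and 14.7-fold for Cldn11, the last being 3.99-fold without SP2. This order is of CPM. With TMM scaling Cnp ran from 805.5 in SP3 to 1617 in SP2, relatively wider than Mog, which ran from 40.4 in SP3 to 71.2 in SN1.

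Pairs of genes were compared by the root mean square difference of their log2 CPM over the 5 libraries, each gene first centred on its own mean. Cnp and Tf were the closest pair, at 0.192, followed by Mbp and Cnp at 0.265 and Mbp and Tf at 0.317. Mobp and Mal lay 0.405 apart, and Cldn11 and Ermn 0.511. The farthest pairs were Cldn11 with Mal, at 1.70, and Cldn11 with Mog, at 1.63. All points share the same 5 libraries and their depths, so these distances are descriptions. The ratio of Cldn11 to Mog reads shows the same contrast: 0.553 and 2.08 in SN1 and SN2, and 1.42, 13.3 and 0.700 in SP1, SP2 and SP3. Cldn11 and Ermn kept a narrower ratio, from 0.530 in SP3 to 1.54 in SP2. The ratio of Mag to Mog reads was 0.165 and 0.167 in SN1 and SN2 and 0.621, 0.511 and 0.360 in SP1, SP2 and SP3, higher in all striatopallidal libraries. That ratio was picked after its values were seen and was not tested.

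**Figure D4:**
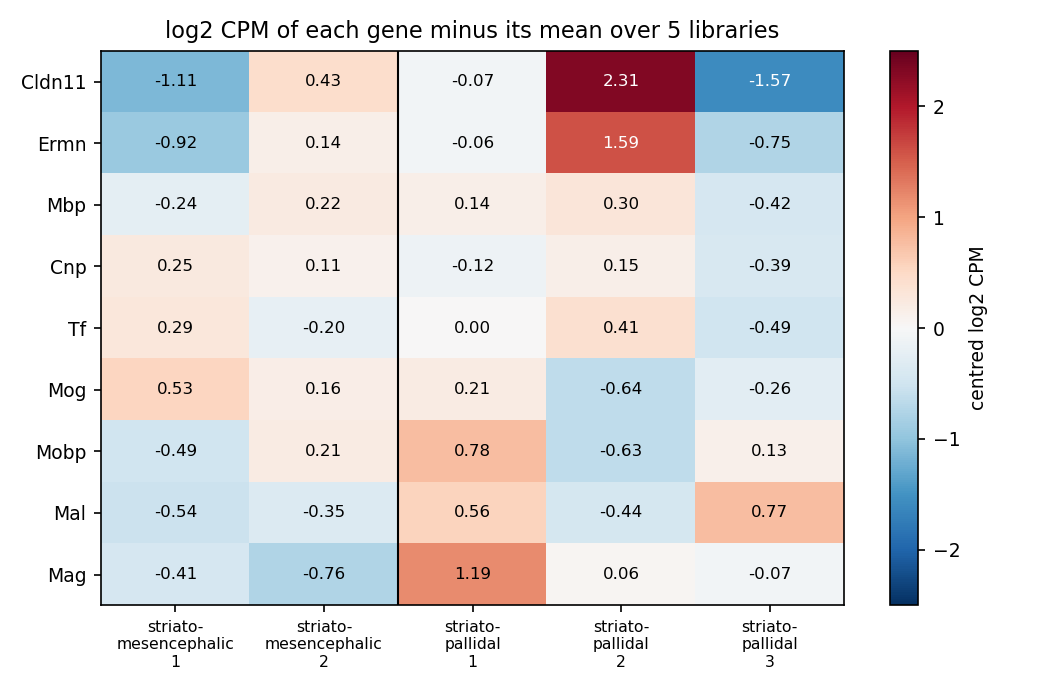
Log2 CPM of each of the 9 genes minus the gene's own mean over the 5 libraries (colour and printed value). Striatopallidal library 2 is high for Cldn11 and Ermn (1.59) and low for Mog (-0.64) and Mobp (-0.63) in CPM, while with TMM scaling it is the lowest library for neither.

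In CPM, SP2 was the highest library for 4 of the 9 genes (Mbp, Cldn11, Ermn and Tf) and the lowest for 2 (Mog and Mobp). SP3 was the lowest for 4 (Mbp, Cnp, Cldn11 and Tf) and the highest for Mal. SN1 was highest for Cnp and Mog, and SP1 for Mag and Mobp. These ranks are of CPM. With TMM scaling SP2 was highest for 5 genes and lowest for 0, and SP3 was lowest for 5, with Mog lowest in SP3 and Mobp in SN1. No library was high or low for all 9 on either scale. Of the tested genes outside the gene lists with a mean of at least 100 CPM, the 5 whose centred values lay nearest to the mean pattern of the 9 over the 5 libraries were Ccpg1, Ptprd, Srp72, Celf1 and Ppp2cb, at root mean square distances of 0.0900 to 0.133.

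Lists of other oligodendrocyte genes covered 46 tested genes out of 58 symbols, the rest having no match in the authors' deposited table. None of the 46 passed the threshold in edgeR's test, against 0% of all genes, and 2 had an unadjusted p below 0.05, against 6.07%. Of the 46, 17 had positive and 29 negative values, with a median of -0.31 against -0.06 for all genes. Gal3st1, Elovl7 and Prr5l had a count of 0 in SP2, which allows up to 0.121 CPM. Among the 17 structural proteins 7 were positive and 10 negative (median -0.38). Over 16 of them the summed level was 580 and 868 CPM in SN1 and SN2 and 712, 645 and 833 CPM in SP1, SP2 and SP3, so SP2, highest for the 9 genes, was not highest here. The tetraspanin Tspan2 was at 0.11 ± 0.52, the node adhesion protein Nfasc at 0.09 ± 0.38 and Plekhb1, which had the smallest p of that list, at 1.25 ± 0.68 (unadjusted p = 0.109, adjusted p = 0.788, edgeR).

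The 12 enzymes of myelin lipid and related metabolism had 7 positive and 5 negative values (median 0.29). Qdpr, which recycles biopterin, was at 0.30 ± 0.43, the carbonic anhydrase Car2 at -0.95 ± 0.62 and the glycolipid carrier Gltp at 1.03 ± 0.59. Fa2h, which hydroxylates the fatty acids of myelin galactolipids, had the smallest p (log2 fold change 3.25 ± 1.16, unadjusted p = 0.0266, adjusted p = 0.779, edgeR). It stood at 117 and 8.45 CPM in SN1 and SN2 and at 13.1, 3.51 and 2.90 CPM in SP1, SP2 and SP3. SN1 was far above the rest, and SN2 was below SP1. Gal3st1, the sulfatide-making transferase, was the other gene with an unadjusted p below 0.05 and was named after its values were seen. It had 287 and 50 counts in SN1 and SN2 and 15, 0 and 7 counts in SP1, SP2 and SP3 (unadjusted p = 0.0267, adjusted p = 0.779, edgeR).

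The 8 regulators had 2 positive and 6 negative values (median -0.20). Olig1, a transcription factor of the lineage, was nearly level, at 212 and 152 CPM in SN1 and SN2 and 239, 136 and 216 CPM in SP1, SP2 and SP3. Erbb3, a neuregulin receptor, was uneven, at 1.49 and 65.8 CPM in SN1 and SN2 and 33.0, 136 and 46.7 CPM in SP1, SP2 and SP3. Sox8, which had the smallest p of the list, was at 0.99 ± 0.64 (adjusted p = 0.804, edgeR). Myrf, the factor whose motif is marked above, was named after its values were seen: it had 218 and 227 counts in SN1 and SN2 and 761, 15 and 152 counts in SP1, SP2 and SP3. Myrf was thus lowest in SP2, the library with the highest sum of the 9 genes.

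Of 9 other oligodendrocyte genes 1 value was positive and 8 were negative (median -1.04). Their sum was 83.9 and 133 CPM in SN1 and SN2 and 192, 245 and 247 CPM in SP1, SP2 and SP3, higher in the striatopallidal libraries without overlap. Of the 9 genes themselves, 1 separated the groups, against 21.1% of all genes. The sum of the regulators did not overlap in the same direction, at 294 and 309 CPM in SN1 and SN2 and 376, 330 and 322 CPM in SP1, SP2 and SP3. That of the lipid enzymes did not overlap in the other direction, at 593 and 633 CPM in SN1 and SN2 and 533, 575 and 428 CPM in SP1, SP2 and SP3. Neither of these 2 separations held without 1 gene. The regulator sums overlap without Erbb3 (136 CPM in SP2), and the enzyme sums without Fa2h (117 CPM in SN1). With TMM scaling, which raises SP2, the enzyme sums overlap with Fa2h as well. Of the 8 regulators 2 separated the groups, both with striatomesencephalic libraries higher. Of the 12 enzymes 5 did, 2 with striatomesencephalic and 3 with striatopallidal libraries higher. Beside both counts stands the share of 21.1% of all genes tested. Among the 9 other oligodendrocyte genes Apod, a lipid-binding apolipoprotein, had the smallest p (log2 fold change -1.35 ± 0.66, unadjusted p = 0.0806, adjusted p = 0.779, edgeR). The actin-binding Gsn was at -1.42 ± 0.75 and the stress-linked Ndrg1 at -0.22 ± 1.31. Anln, an actin-bundling protein, was named after its values were seen. It stood at 107 CPM in SP2 against 0.937 to 4.33 CPM in the other libraries, the same library that was high for Cldn11 and Ermn.

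**Figure D5:**
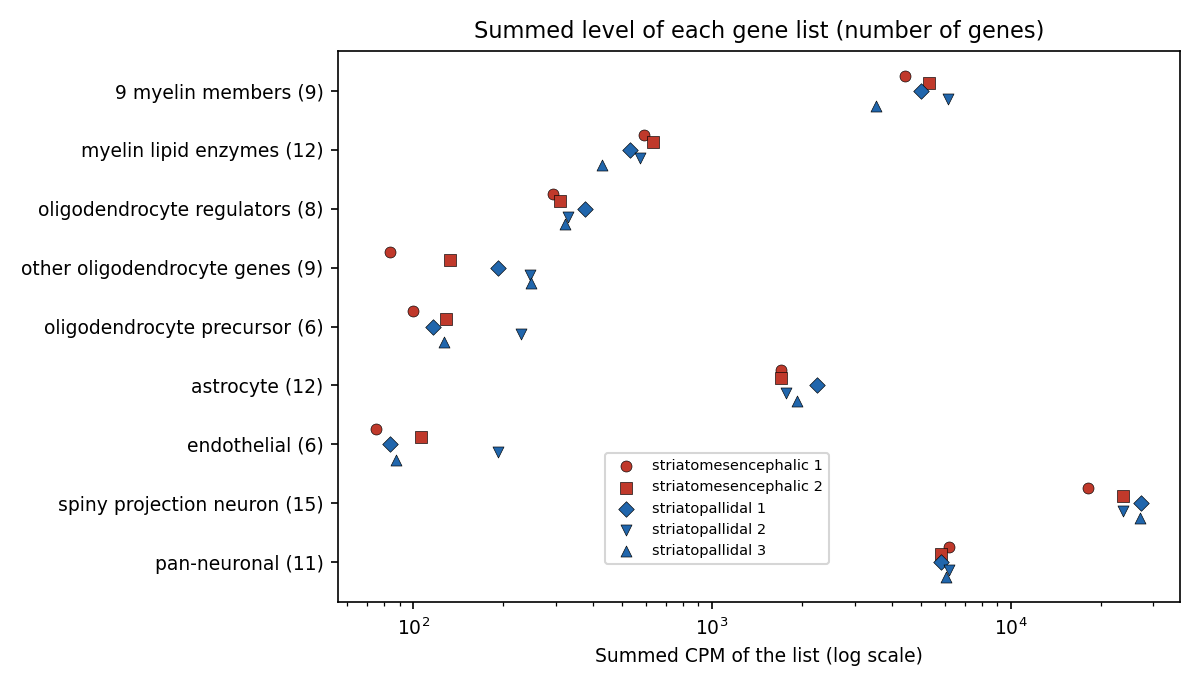
Summed CPM (x axis, log scale) of the matched genes of each list (y axis, number of genes in parentheses), 1 symbol per library. The sum of the 9 genes lies between 3546 and 6141 CPM, and striatopallidal library 2 has the highest sum for the 9 genes and for the precursor, endothelial and pan-neuronal lists, but not for the other 5 lists drawn. In CPM its place in the precursor and pan-neuronal lists rests on 1 gene each, Sox6 and Slc32a1. These ranks are of CPM: with TMM scaling, which raises striatopallidal library 2, it has the highest sum in every list drawn.

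Markers of other cell types were measured beside the myelin genes. Precursor genes (6 of 8 symbols matched) summed to 99.8 and 129 CPM in SN1 and SN2 and to 117, 229 and 126 CPM in SP1, SP2 and SP3. They were highest in SP2, where Sox6 stood at 178 CPM against 18.5 to 28.7 CPM elsewhere, while Pdgfra, the receptor that defines these cells, ran from 27.8 to 44.9 CPM. The place of SP2 rested on Sox6: without that gene SP2 had the lowest precursor sum. Astrocyte genes (12 of 12, led by the bicarbonate transporter Slc4a4 and the glutamate transporter Slc1a3) summed to 1698 and 1695 CPM in SN1 and SN2 and to 2253, 1772 and 1931 CPM in SP1, SP2 and SP3. All striatopallidal sums were above both striatomesencephalic ones, but in CPM this rested on Gfap, the astrocyte filament protein, named after its values were seen. Gfap stood at 11.5 and 3.85 CPM in SN1 and SN2 and at 243, 175 and 87.7 CPM in SP1, SP2 and SP3 (unadjusted p = 0.000837, adjusted p = 0.779, edgeR). Without it the sums of the other 11 genes were 1686 and 1691 CPM in SN1 and SN2 and 2010, 1597 and 1844 CPM in SP1, SP2 and SP3. The groups then overlapped, through SP2 alone. With TMM scaling, which raises SP2, they did not overlap without Gfap either. Of the 12 genes 6 had positive and 6 negative fold changes (median 0.01).

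Of the microglial genes (6 of 10 matched), 5 summed to 35.8 and 20.6 CPM in SN1 and SN2 and to 104 CPM in SP1, 36.4 CPM in SP2 and 31.5 CPM in SP3. Among them the complement gene C1qa ran from 4.27 CPM in SP2 to 31.9 CPM in SP1. Endothelial genes (6 of 8, led by Flt1 and Slco1a4) summed to values from 75.3 CPM in SN1 to 192 CPM in SP2. That was also the library highest for Mbp, Cldn11, Ermn and Tf. The astrocyte and microglial sums in CPM were instead highest in SP1. Egr2, a regulator that Schwann cells share with neurons, ran from 1.81 CPM in SP2 to 97.1 CPM in SP1. For choroid plexus, which also makes transferrin, 1 of 8 symbols was matched: Kl had 112 and 1 counts in SN1 and SN2 and 0, 1 and 0 in SP1, SP2 and SP3. For meningeal fibroblasts 1 of 8 was matched: Dcn had 1 and 1 counts in SN1 and SN2 and 36, 24 and 302 in SP1, SP2 and SP3. The part of these other cells in the values of the 9 genes was not tested.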

How the data were processed

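Per the labels' protocols, RNA was taken up in TRIzol and polyadenylated RNA was amplified with the REPLI-g single-cell kit before library preparation. The submitters' processing notes name TopHat2, HTSeq, edgeR and limma and the build Rnor_6.0. The authors deposited gene counts per library, used here for every test, and these were also scaled to CPM. The authors' deposited normalized signal equals count over normalization factor, within 0.00501, without division by library total. It is raised in SP2: Mbp is 119833 there and 48532 to 79403 elsewhere. Their deposited comparison supplied gene names, log2 fold changes and p-values. Amplification of few cells can change the proportions of transcripts, and no molecular identifiers correct for it.

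Counts were tested with edgeR 4.0.16 (R 4.3.3; filterByExpr, TMM, glmQLFit, glmQLFTest, Benjamini-Hochberg over 13811 genes). The biological coefficient of variation was 0.822. DESeq2 1.42.0, the edgeR exact test and limma 3.58.1 (voom) were alternatives, beside other scalings, filters, a replicate block and leaving out each library. The test scripts were run on simulated data whose spread between libraries was far smaller than in these data. That run does not show which changes could be found here. Shares have exact 95% binomial intervals. Members and gene lists were chosen with earlier results of these data known. Named genes were all members; per list the 3 of highest CPM and the smallest p; for other cell types the 2 of highest CPM and markers at 0; and the 5 nearest in pattern. A few of these are not reported here. Of 152 symbols 115 were matched. Promoters are from RefSeq (GRCr8).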

Additional observations from a re-analysis of the deposited data

How the results depend on the processing

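No member passed the threshold under any of the scalings, filters, tools, left-out libraries or the replicate block that were run. Over all genes DESeq2 called 226, the edgeR exact test 45 and every other setting 0. Signs were less stable. When each library was left out in turn, the log2 fold change ran from -0.43 to 0.22 for Mbp, from -0.72 to 0.02 for Mobp, from -0.03 to 0.52 for Cnp, from -2.51 to 0.60 for Cldn11, from -1.80 to 0.17 for Ermn and from -0.36 to 0.38 for Tf. The number of negative values ran from 3 (without SP2) to 8 (without SP3), a count added after seeing the data. Tf was at 0.05 with library totals only and at 0.03 in limma voom. The cause of these changes was not tested. Mog, Mag and Mal kept their sign in every setting. Without Tf in the set, the mean Mbp share of striatopallidal libraries was 67.5%. Deviations of same-numbered libraries from their group means had correlations of -0.019 and -0.034. The deviations of SN1 and SN2 mirror each other by construction. This check therefore cannot show whether the numbers pair the libraries. With the replicate block 7 values were negative, Mag was at -1.35, Cldn11 at -1.60 had an unadjusted p of 0.0441 (adjusted p = 1, edgeR), the only member below 0.05, and 465 genes had an unadjusted p below 0.05, against 839 without it. Shares per transcript length were not run, since no transcript lengths of the build were used here. Mag, at 217 to 885 counts, has the widest counting error of the 9 genes.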
